A study of Mus musculus with 8 samples.

Results

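In mouse liver, 924 of the 9020 genes with an m6A peak in Wtap flox/flox (control) mice had no peak in the list of Wtap-HKO mice, 10.2% of the control genes. These control-only genes were chosen by their gene identifier alone: every row of the control list whose gene did not occur in the Wtap-HKO list was taken. They held 1100 of the 15635 control peaks, and the other 8096 genes, called kept genes here, held 14535. The Wtap-HKO list was the longer one, with 19185 peaks in 10634 genes. The absence of a Wtap-HKO peak is thus the rule itself and not a result, and the values below describe the control peaks of these genes with no test. Medians and shares are given with 95% intervals, which hold counting error alone, and peaks that lie next to each other in 1 gene share reads and are not separate observations.

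m6ARIP-seq, which sequences RNA fragments pulled down with an antibody against N6-methyladenosine (IP) beside RNA that was not pulled down (input), had been run on fragmented mRNA that was isolated from total liver RNA. The mice were C57BL/6 by the labels, of a C57BL/6J background by the methods, male, and 8 weeks old. The control mice carried Wtap flox/flox alleles without Cre, and the Wtap-HKO mice carried Wtap flox/flox with Alb-Cre, a Cre under the albumin promoter of hepatocytes, so that Kupffer, endothelial and stellate cells keep the gene. Each genotype had 2 IP and 2 input libraries, each from RNA pooled over several mice. The deposited lists combine the libraries of a genotype, so there is 1 value per peak and genotype, no replicate error and no known depth, and a gene that is absent from the Wtap-HKO list has no value there. In bulk liver RNA, fewer methylated transcripts, fewer transcripts and fewer cells that make them cannot be told apart from such a list.

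m6A is an adenosine methylation that is placed on nascent mRNA by a writer complex. METTL3 is its catalytic subunit, METTL14 binds the RNA with it, and WTAP is a regulatory subunit that holds both in nuclear speckles. The mark lies mostly near stop codons, in 3′ untranslated regions and in long internal exons, within short motifs such as GGAC, and it is known to affect splicing, translation and decay of the mRNA. In hepatocytes, many abundant mRNAs of lipid, amino acid and drug metabolism carry it.

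Wtap itself was not a member of the group. It had 3 control peaks on chromosome 17, with fold enrichments (IP over input, a linear ratio) of 8.06, 20.7 and 8.78, and 3 Wtap-HKO peaks with 4.47, 20.5 and 20.6. The list says nothing of the deleted exon, so this is no check of the deletion. Of the other m6A writers, readers and erasers with a control peak, none of the 13 was control-only. Of the 6 hepatocyte markers looked up, Alb had 1 peak in each list, Apoa1 had 1 and 2, Ttr had 0 and 1, and Serpina1a and Cps1 had none in either. Cyp2e1, the enzyme that oxidises ethanol in hepatocytes, had 1 control peak and no Wtap-HKO peak and was therefore a member.

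A few control-only genes had a peak over the first bases of an annotated transcript, and 4 of them with a known role in liver are shown as a view of the RNA below such a peak. RefSeq (GRCm38.p6) windows were available for the starts of 28 control-only genes that a control peak covered, as 30 windows, and in 13 of these all of the first 50 bases were under the peak. The first 30 bases are printed from 5′ to 3′ on the transcript strand, with GGAC in capitals where it occurs. Mup7 and Mup11 encode major urinary proteins, which are small secreted carriers, Sult2a8 encodes a sulfotransferase of bile acids, and Fgf21 encodes a hormone released by the liver in fasting.
Mup7: ttccacaaagcctaacagaggtagaggaga
Mup11: tataaGGACaagcaaaggggctggggagtg
Sult2a8: agtaagtagttcaagttcaccctgagttac
Fgf21: agacagccttagtgtcttctcagctgggga

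These bases lie on the minus strand at chr4:60070446-60070475 (Mup7), chr4:60662366-60662395 (Mup11), chr7:14438522-14438551 (Sult2a8) and chr7:45615461-45615490 (Fgf21). GGAC stood in 1 of the 4 stretches, that of Mup11. Searched on the transcript strand over the first 50 bases, it stood in 6 of the 30 control-only windows (20%, 9.51 to 37.3), in 218 of 1122 windows of kept genes under a peak (19.4%) and in 6194 of all 32851 windows (18.9%). The share was thus close to that of all annotated starts. For Mup7 and Fgf21 this start is the outermost one of the gene, for Mup11 it lies a little inside the span, and for Sult2a8 it is an internal start far downstream of the gene's 5′ end, below a peak over 5 exon blocks whose centre stood at 28.6% of the span. The peak over the Mup7 stretch had a fold enrichment of 10.2, and those over the stretches of Mup11, Sult2a8 and Fgf21 had 8.55, 4.42 and 23.7. The Mup genes are near-identical copies, so the assignment of their reads to 1 copy is uncertain. Sequence below the other peaks was not analysed here.

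Control-only peaks were weaker and shorter than the peaks of kept genes. Their median fold enrichment was 4.03 (3.88 to 4.23; n = 1100), and that of the kept genes was 5.65 (5.56 to 5.73; n = 14535). The middle part of the control-only values, from the lower to the upper quartile, ran from 2.72 to 7.22, and the whole range was 1.24 to 70.3. A fold enrichment of at least 10 was found for 191 control-only peaks (17.4%, against 24.3% of kept peaks), and one under 2 for 106 (9.64%, against 4.70%). Over genes, the median of the highest fold enrichment per gene was 4.14 for control-only genes and 7.32 for kept genes.

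The peak caller's score, the log10 of the false discovery rate (more negative is stronger), was weaker as well. Its median was -8.51 (-9.14 to -8.04) in control-only peaks and -23.8 (-24.6 to -23.0) in kept peaks. Scores above -5, the weak end of the list, were held by 235 control-only peaks (21.4%) and by 6.76% of kept peaks. When all 9020 genes were ordered by their best control score and cut into 10 classes of 902 genes, the share of control-only genes went from 12 genes (1.33%, 0.763 to 2.31) in the strongest class to 316 genes (35.0%, 32.0 to 38.2) in the weakest. No class had a lower share than the stronger one before it.

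**Figure D1:**
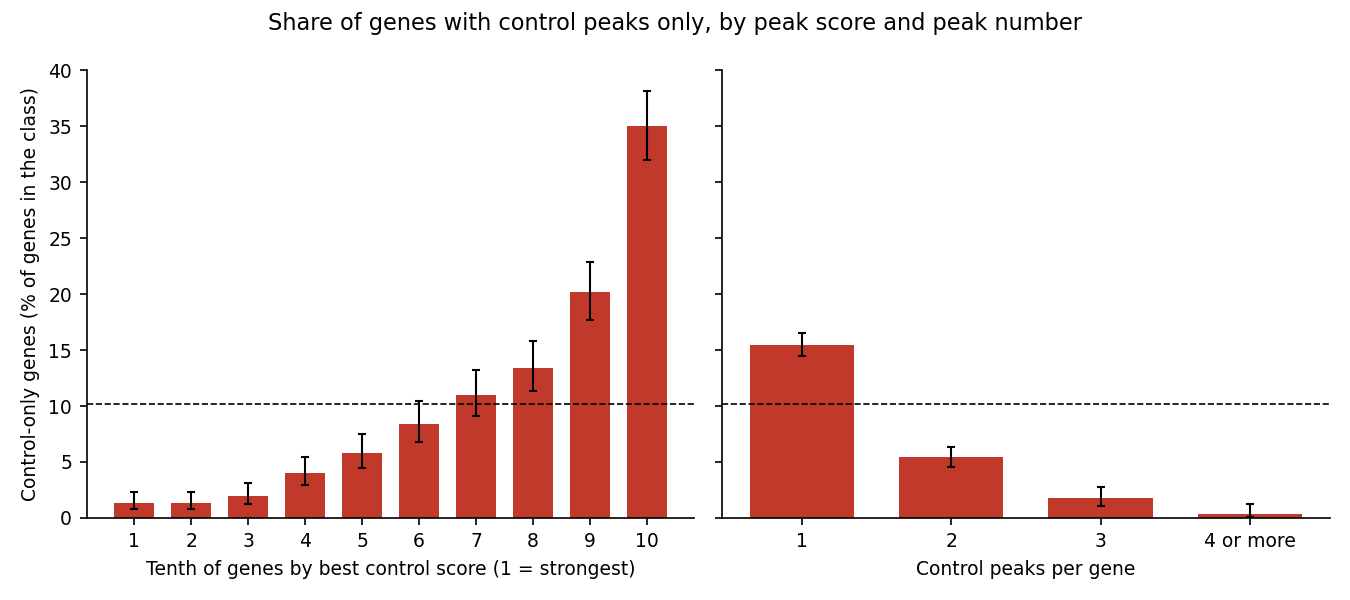
Percent of genes with control peaks only, by class of genes ordered by best control score, with 10 classes of equal size (left) and by number of control peaks per gene (right); bars are percents of the genes in a class, whiskers 95% Wilson intervals, and the dashed line the 10.2% of all genes. The share is 1.33% in the strongest class and 35.0% in the weakest, and falls from 15.5% at 1 peak to 0.342% at 4 or more.

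Most control-only genes had a single control peak. This was so for 772 of 924 (83.5%, 81.0 to 85.8) and for 52.2% of kept genes, a difference of 31.4 percentage points (28.6 to 33.9). Another 133 genes had 2 peaks, 17 had 3, Zfyve9 had 5 and Extl1 had 6. Read the other way, 15.5% of the genes with 1 control peak were control-only, 5.41% of those with 2, 1.73% of those with 3, and 2 of 585 (0.342%) of those with 4 or more. By the rule, 1 Wtap-HKO peak anywhere in a gene was enough to leave it out of the group.

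The differences in enrichment and length were also present among genes with a single peak. In genes with 1 control peak, the median fold enrichment was 3.885 (3.59 to 4.05; n = 772) in control-only genes and 6.00 (5.82 to 6.18; n = 4223) in kept genes. The exonic length, which counts the bases of the peak in exons, had a median of 180 nt (179 to 180) over all control-only peaks against 270 nt (270 to 270) in kept peaks, and of 179 against 270 nt in genes with 1 peak. Only 22 control-only peaks (2%) were longer than 500 nt, against 19.1% of kept peaks, and the longest was 1078 nt, in Inpp5f, which encodes a phosphoinositide phosphatase. Peaks that ran over more than 1 exon block made up 94 of 1100 (8.55%) against 15.0%. The span of the genes differed little, with medians of 22711.5 nt (20351 to 25030; 712 genes with a RefSeq match) and 24286 nt (23507 to 25213; 7377 genes).

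**Figure D2:**
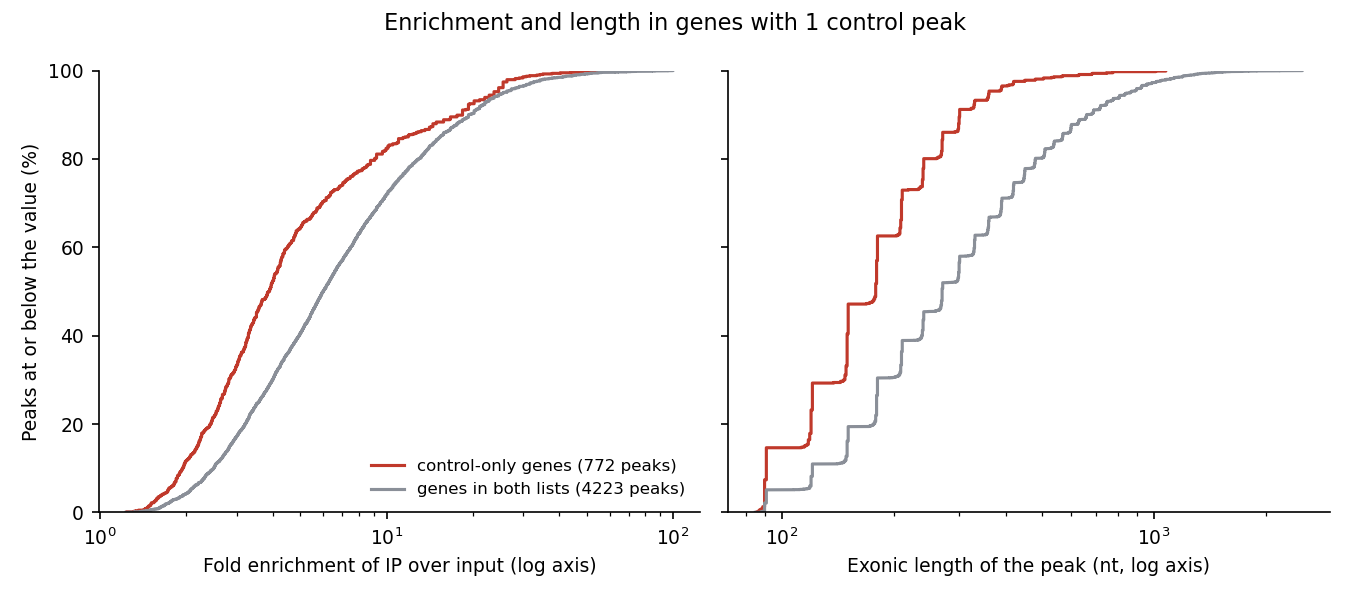
Cumulative percent of peaks by fold enrichment (left, log axis) and by exonic length in nt (right, log axis) in genes with 1 control peak, for 772 control-only and 4223 kept genes. The control-only curve lies to the left in both panels, with medians of 3.885 against 6.00 and of 179 against 270 nt; the lengths rise in steps.

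The genes closest to the edge of each list were picked as the weakest on their side, so their closeness to the edge is no result. Control-only genes have no Wtap-HKO value, so their distance from the Wtap-HKO edge is unknown. The median best score of all control-only genes was -9.155. The weakest score was -2.22 in the control list and -2.01 in the Wtap-HKO list. Just inside stood Cep95, a centrosomal protein gene, whose best control peak had a score of -2.37 and a fold enrichment of 3.29, and 2 genes without a symbol, both at -2.43. Just outside stood Phf8, a histone demethylase gene that was kept by 1 Wtap-HKO peak with a score of -2.23 and a fold enrichment of 3.76, then a gene without a symbol at -2.41, and Dctn4, a dynactin subunit gene, at -2.45 with 4.97.

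Enrichment and score ran against each other within the group. The control-only peaks were ordered by fold enrichment and cut into 4 classes of 275. In the class with the lowest fold enrichment (1.24 to 2.72), the median score was -10.9, and in the class with the highest (7.25 to 70.3) it was -6.2. A score below -50 was held by 41 peaks of the lowest class and by 10 of the highest. The genes with the highest ratios and the genes with the strongest scores were therefore largely different ones.

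The highest fold enrichments belonged to genes with a modest score. Adra1a, the alpha-1A adrenergic receptor gene, had 70.3 at chr14:66637048-66637288 with a score of -19.1, and a second peak of 8.43. Acot6, an acyl-CoA thioesterase gene, had 58.8 with -16.3, and 1700056E22Rik had 51.8 with -13.6. Rbm20, a regulator of splicing, had 48.3, Zfp354b, a zinc finger gene, had 46.6, and Cbr3, a carbonyl reductase gene, and Cul4a, a scaffold of ubiquitin ligases, both had 43.9. A gene without a symbol at 40.4, B4galnt3, a glycosyltransferase gene, at 37.8 and Nfat5, the transcription factor of the response to osmotic stress, at 36.0 closed the 10 highest. Their best scores lay between -8.91 and -19.1, while the median of the best score over all control-only genes was -9.155.

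Many of these high ratios occurred in exactly the same form in several genes. Of the 191 control-only peaks at 10 or above, 114 (59.7%) shared both their fold enrichment and their score, as written in the list, with a peak of another gene, and of the 78 at 20 or above, 61 (78.2%) did. In kept peaks these shares were 30.2% and 38.9%, and in control-only peaks under 10 the share was 18.5%. Cul4a, Mrpl45, Zfp667, Impg2, Lrrc15, Ptk6, 4931428F04Rik and a gene without a symbol all had a peak at 24.6 with a score of -5.6. These 8 were chosen after their values were seen. The median score of the control-only peaks of at least 10 was -6.1, and that of the kept peaks of at least 10 was -31.2. Such peaks appear as diagonal lines of points in the plot of enrichment against score.

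**Figure D3:**
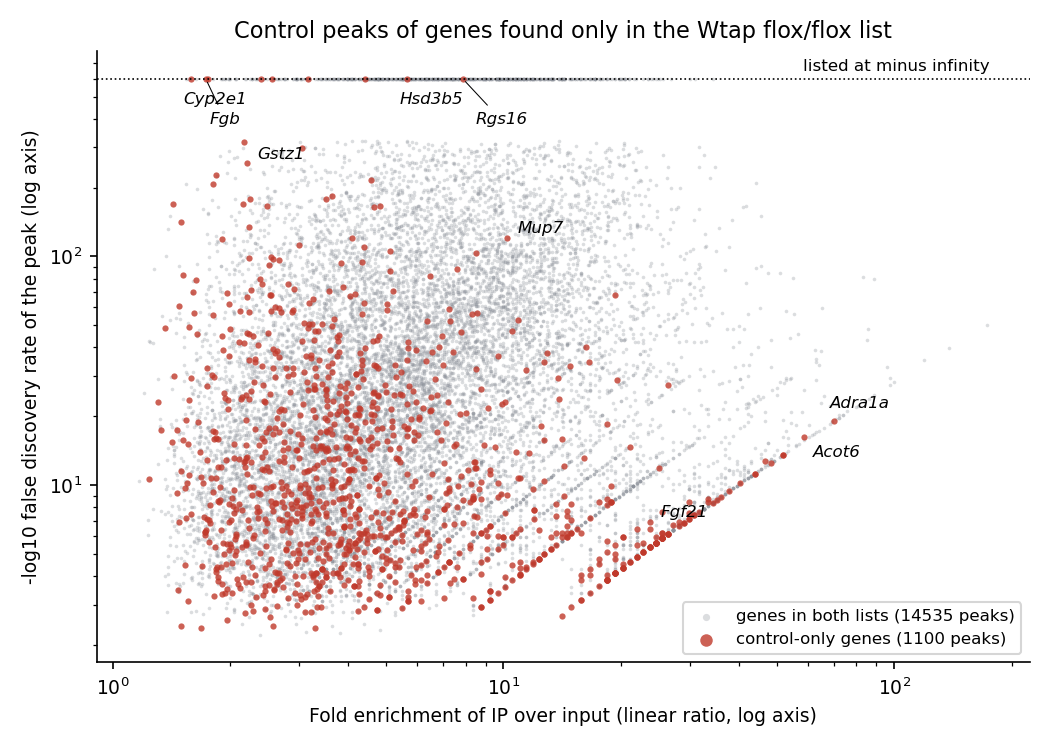
Each point is 1 control peak, by fold enrichment of IP over input (horizontal, log axis) and negative log10 false discovery rate (vertical, log axis), for control-only genes (red) and kept genes (grey); scores listed at minus infinity are drawn on the dotted line. Control-only peaks crowd at low scores, the highest ratios (Adra1a, 70.3) lie on a line at the lower right, and 9 control-only peaks stand on the dotted line.

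A best score below -50 was found for 80 control-only genes, which are called strong here. They were 2.19% of the 3650 control genes that passed this mark. In all, 9 peaks of 8 of these genes were listed at a score of minus infinity, and among the genes were Cyp2e1, Fgb, the fibrinogen β chain, Hsd3b5, a steroid dehydrogenase, Slco1a1, an uptake transporter of organic anions, Car3, a carbonic anhydrase, Sult2a8, and Rgs16, a regulator of G protein signalling. The highest fold enrichments of these ran from 1.59 in Cyp2e1, 1.73 in Fgb and 1.81 in Car3 to 5.68 in Hsd3b5 and 7.86 in Rgs16. Rgs16, Slco1a1 and Car3 were named after their values were seen.

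The strong genes had the lower ratios of the group. The median fold enrichment of their 108 peaks was 3.08 (2.61 to 3.53), against 5.64 (5.52 to 5.75) in the 7250 peaks of strong kept genes. Only 4 of the 108 (3.70%) reached 10, against 22.1%. Their peaks were longer than those of the group as a whole, with a median of 269 nt (240 to 298) against 359 nt in strong kept genes. Hsd3b5 had the longest, of 1013 nt at chr3:98618753-98619765.

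The deposited table of peaks that differ between the genotypes was used only by position. Of all genes with a control peak, 30.4% had a peak that shared an exonic base with it on the same strand, and of the control-only genes 224 (24.2%, against 31.1% of kept genes). With 1 control peak per gene the shares were 22.9% and 23.4%, a difference of -0.492 percentage points (-3.60 to 2.85). Within the strong genes the overlap was 61 of 80 (76.3%) in control-only and 49.9% in kept genes. Since the table comes from the same contrast as the rule, nothing is read from these counts.

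The genes were also compared with 2 lists of the same study, of genes whose RNA and chromatin accessibility were both lower, or both higher, in Wtap-HKO livers. These lists, called the lower and the higher RNA list below, come from other libraries of the same mouse lines. A gene had to meet both conditions, so absence from the lower RNA list does not mean that its RNA was unchanged. The lower list held 105 control-only genes (11.4%, 9.48 to 13.6) against 6.25% of kept genes and 6.77% of all genes with a control peak, a difference of 5.11 percentage points (3.15 to 7.38). The higher list held 38 (4.11%) against 6.97%, with 6.67% over all, a difference of -2.85 points (-4.10 to -1.28). In genes with 1 control peak the lower list held 10.6% against 5.61%, and the higher list 4.15% against 7.74%.

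In the strong genes the lower list weighed more. It held 25 of the 80 (31.3%, 22.2 to 42.1) against 9.13% of strong kept genes. Cyp2e1, Car3, Sult2a8, Hsd3b5, Slco1a1, Cyp3a25, Gstz1, Hpd and Mup7 were among the 25. The higher list held 3, Serpina7, Itih5 and Prss8. The part of a lower RNA level in the missing Wtap-HKO peak was not tested.

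Control-only peaks lay nearer to the 3′ end of the gene and less often at its 5′ end. Position was read on the RefSeq span of the gene, from the first to the last annotated base, introns included, for the 843 control-only peaks and 13326 kept peaks whose gene matched and whose peak lay on it. The final 10% of the span held the centre of 458 control-only peaks (54.3%, 51.0 to 57.7) against 41.0% of kept peaks, a difference of 13.3 percentage points (9.81 to 16.7). The first 10% held 60 (7.12%, 5.57 to 9.05) against 14.1%. When the span was cut into 10 equal bins, each of the bins from 2 to 8 held between 2.25% and 5.10% of the control-only peaks.

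**Figure D4:**
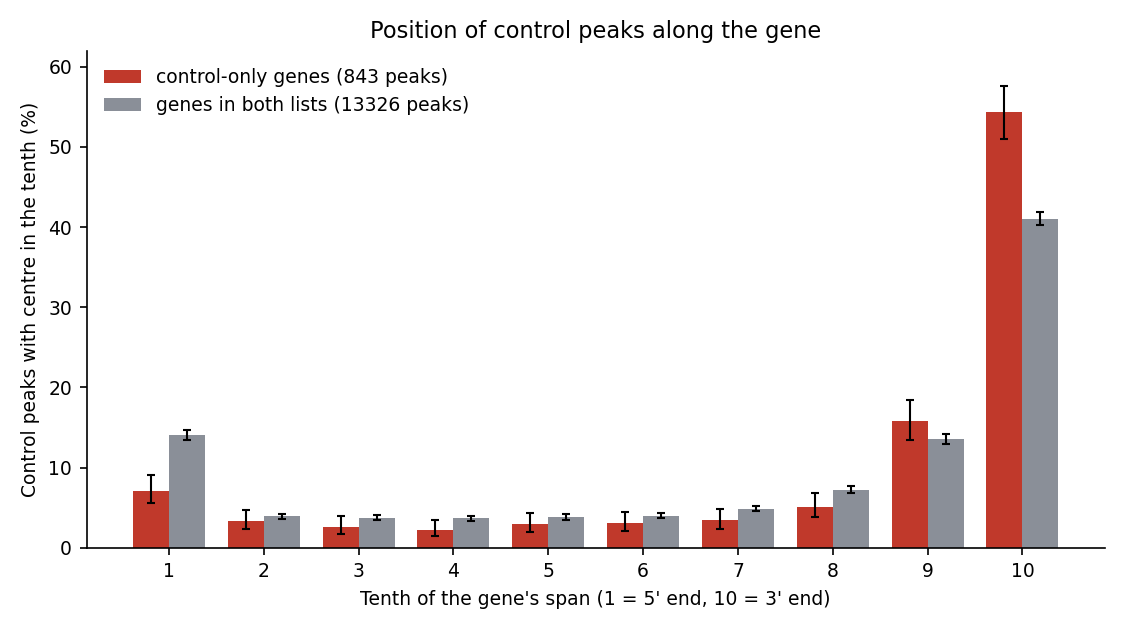
Percent of control peaks whose centre lies in each of 10 equal bins of the RefSeq gene span, from the 5′ end (1) to the 3′ end (10), for 843 peaks of control-only genes (red) and 13326 peaks of kept genes (grey); whiskers are 95% Wilson intervals. The control-only bars are lower in the first bin (7.12% against 14.1%) and higher in the last (54.3% against 41.0%).

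The 5′ end was sparsely covered. An edge within 200 nt of the gene's start was found for 37 control-only peaks (4.39%, 3.20 to 5.99) and for 11% of kept peaks, a difference of -6.66 percentage points (-7.96 to -4.97), and with 1 control peak per gene the shares were 4.37% and 13.2%. An edge within 200 nt of the 3′ end was found for 125 (14.8%) against 9.67%, but in genes with 1 peak for 16.4% against 14.9%, a difference of 1.56 points with an interval that includes 0 (-1.50 to 5.0). In strong genes it was found for 23 of 92 (25%) against 11.1%, a difference of 13.9 points (6.09 to 23.6). Of the placed peaks of the whole Wtap-HKO list, the first bin held 20.9% and the last bin 35.4%. Among strong genes the final 10% held 55 of 92 control-only peaks (59.8%) against 40.4% of kept peaks. Mup7, Mup11, Fgf21, Slc26a6, an anion exchanger gene, Slc25a26, a mitochondrial carrier gene, and Nat1, an arylamine acetyltransferase gene, were among the genes with a peak at the start.

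Position and strength came together in single genes. Fgb had a peak over 2 exon blocks that ended 6 nt from the 3′ end. Cyp2e1 had its peak of 181 nt at chr7:140774657-140774837, with the centre at 97.8%. Hadha, Acadm and Acaa1b, described with the lipid genes, had peaks that ended 9, 34 and 10 nt from the 3′ end. Whether these bases are coding or untranslated was not analysed here, since gene spans and not exons were at hand.

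The genes with the most peaks had them in clusters. Extl1, a glycosyltransferase gene of the exostosin family, had 6 peaks on chromosome 4, 3 of them in the final 5% of the span and 3 in the first 10%, with fold enrichments from 3.51 to 14.3 and scores from -4.13 to -12.1. Zfyve9, which encodes an anchor for SMAD proteins in TGF-β signalling, had 5 peaks of 2.68 to 13.9, and 4 of them stood next to each other between 42.9% and 43.7% of the span. Another 17 genes tied at 3 peaks, and the 8 of them with the highest fold enrichment were Mfsd9, Zfhx4, Zbed5, Plekha7, Fam160a1, Fdxacb1 and 2 genes without a symbol. Zfhx4, a homeobox transcription factor gene, had its strongest peak (16.3, score -40.1) 304 nt from the 3′ end. The 2 genes without a symbol had their strongest scores at -88.4 and -165.0.

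A part of the group was poorly annotated. No symbol was given for 200 control-only genes (21.6%) against 7.83% of kept genes, and ENSMUSG00000087413, with a fold enrichment of 40.4, was one of them. RefSeq genes were matched by symbol or synonym, so a gene without a symbol could have no match. A match was found for 712 (77.1%) against 91.1%, which follows from the missing symbols. With a symbol, it was found for 712 of 724 control-only genes and 7377 of 7462 kept genes. Of the 712 matched genes, 706 (99.2%) were protein coding, and the class of the genes without a symbol is not known here. Over the autosomes and the X, the share of control-only genes ran from 7.31% (16 of 219) on chromosome 18 to 14.7% (31 of 211) on the X. None of the 4 mitochondrial genes and 0 of the 1 gene on the Y with a control peak were members.

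Fatty acid oxidation and ketogenesis genes were control-only in 7 of 34 cases (20.6%, 10.3 to 36.8), beside 10.2% over all genes. Fgf21 had the highest fold enrichment of these (23.7, score -6.93), followed by Acot2 (8.34) and Acot1 (4.11), which encode acyl-CoA thioesterases and whose sequences are very alike. Hadha (2.26), a subunit of the mitochondrial trifunctional protein, Acadm (2.23), the medium-chain acyl-CoA dehydrogenase, and Acaa1b (1.51), a peroxisomal thiolase, had lower ratios with strong scores, of -71.5 in Hadha, -134.0 in Acadm and -83.2 in Acaa1b. Of the 22 strong genes of this list, 5 were control-only, beside 2.19% over all strong genes. The lower RNA list held 1 of the 7, beside 5 of the 27 kept genes, and Acot2 was in the higher one.

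Of the lipogenesis and triglyceride genes, 4 of 23 (17.4%, 6.98 to 37.1) were control-only. Elovl3, an elongase of very long fatty acids, had 2 peaks of 1.90 and 3.89, and Fads1, a desaturase, Elovl5, an elongase, and Dgat2, which makes triglycerides, had 1.64, 1.63 and 1.48. The best score per gene ran from -45.7 in Fads1 to -79.3 in Elovl5. Of the cholesterol and bile acid genes, 5 of 33 (15.2%) were members. Hsd17b7, an enzyme of cholesterol synthesis, had 4.34. Cyp7b1, an oxysterol hydroxylase of bile acid synthesis, had 2.52 and 2.38, Pmvk, of the mevalonate pathway, 1.78, and Abcb11, the bile salt export pump, 1.57.

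Amino acid and sugar metabolism stood nearer to the share of all genes, with wide intervals that overlap those of the lipid lists. Among strong genes, 4 of 36 in the amino acid list and 1 of 12 in the sugar list were control-only, beside 2.19% over all strong genes. In the urea cycle and amino acid list 6 of 46 (13%, 6.12 to 25.7) were control-only: Agxt2, Pcca, Mut, Gstz1, Gpt2 and Hpd. Hpd and Gstz1, both of tyrosine breakdown, had fold enrichments of 1.5 and 2.21 and scores of -142.0 and -256.0. Pcca and Mut, of the propionate pathway, had 2.97 and 2.29, and Agxt2, an aminotransferase, had 3 peaks up to 5.20. In the list of gluconeogenesis, glycolysis and glycogen 2 of 18 (11.1%) were members, Pcx (1.90, score -119.0), which encodes pyruvate carboxylase, and Tkfc (1.24), which encodes a triose kinase of fructose metabolism and had the lowest ratio of the group.

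Genes of drug and steroid metabolism gave 7 of 33 for the cytochrome P450 genes (21.2%, 10.7 to 37.8) and 6 of 31 for the phase II conjugation genes (19.4%, 9.19 to 36.3). The P450 members were Cyp2b10 (10.1), Cyp2r1 (5.24), a vitamin D hydroxylase, Cyp7b1, Cyp3a59 (2.44), Cyp3a25 (2.17, score -317.0), Cyp2c69 (1.72) and Cyp2e1 (1.59). The lower RNA list held 4 of the 7, beside 14 of the 26 kept P450 genes, and Cyp2b10 was in the higher one. The members from the phase II list were Nat14 (16.7, score -3.38), Nat1 (5.71), Sult2a8 (4.42 and 2.56), Ugt2b38 (3.06), Gstz1 and Gstt3 (2.20). Nat14 is counted because the list held it, and whether it conjugates drugs was not examined. Genes of the Cyp2c, Cyp3a and Ugt2b families share near-identical stretches, so their assignment is uncertain.

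All 4 major urinary protein genes with a control peak were control-only (100%, 51.0 to 100). Mup7 (10.2) and Mup11 (8.55) had their peak at the start of the gene, and Mup16 (3.85) and Mup18 (3.44) at its 3′ end. Scores were -121.0, -56.4, -93.5 and -14.9. Mup7, Mup11 and Mup16 were in the lower RNA list. Another gene of the family, Mup21, had a peak only in the Wtap-HKO list.

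Over 7 metabolic lists together (the lists of lipid, cholesterol, sugar and amino acid metabolism, P450 and phase II genes), 19 of the 145 strong genes were control-only (13.1%), against 61 of 3505 strong genes outside these lists (1.74%). The lists and the mark of -50 were chosen with results of these data known. Other genes of these lists had a peak only in the Wtap-HKO list. They were 9 P450, 7 urea cycle and amino acid, 6 sugar, 5 fatty acid oxidation, 5 phase II, 2 lipogenesis and 2 cholesterol genes. The kept genes of the same lists were 26, 40, 16, 27, 25, 19 and 28, in that order. Of the 10634 genes of the Wtap-HKO list, 8096 also had a control peak, so nothing is read from these counts.

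Plasma protein, complement and coagulation genes, a large group of abundant liver mRNAs, gave 5 of 71 (7.04%, 3.05 to 15.4). Another 8 genes of the list had a peak only in the Wtap-HKO list, where 8096 of all 10634 genes also had a control peak. Serpina7, the thyroxine-binding globulin, had 3 peaks of 3.12 to 5.14, and C2, Saa1, Fgb and Mbl2 had 1 each, of 1.92, 1.74, 1.73 and 1.36. None of the 5 was in the list of lower RNA and accessibility, which held 23 of the 66 kept genes. Whether their RNA alone was lower was not examined. Peroxisome biogenesis gave 2 of 11, Pex26 (5.03) and Pex6 (1.68), which act in the same import step. Of 30 nuclear receptors, 1 was a member (3.33%). In the unfolded protein response list 3 of 30 were members, Edem2 (2.67) and Syvn1 (2.36), both of endoplasmic reticulum-associated degradation, and Pdia6 (2.63), a disulfide isomerase.

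Mitochondrial ribosomal protein genes gave 8 of 54 (14.8%, 7.70 to 26.6), and 4 of them were strong: Mrpl43 (4.57, score -217.0), Mrpl50 (5.14, -106.0), Mrps12 (2.89, -58.4) and Mrpl45. The cytosolic ribosomal protein genes gave 3 of 13, Rpl22l1 (3.55), Rpl41 (1.84) and Rps9 (1.31). Respiratory chain subunits gave 2 of 29, Atp5s (7.90) and Ndufa2 (1.80), and proteasome subunits 2 of 29, Psmd10 (2.54) and Psmd11 (1.59).

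Gene families of mixed function covered the rest. Transmembrane protein (Tmem) genes were members in 20 of 107 cases (18.7%, 12.4 to 27.1), led by Tmem144 (21.1) and Tmem125 (10.5, score -47.0), and numbered RIKEN and predicted genes in 43 of 311 (13.8%, 10.4 to 18.1). Zinc finger (Zfp) genes, which often carry m6A in long last exons, gave 19 of 272 (6.99%, 4.52 to 10.7), but with high ratios. The median over the 19 of the highest fold enrichment was 10.1, against 4.14 over all control-only genes. Zfp354b, Zfp647 (26.3), Zfp689 (25.5) and Zfp667 (24.6) stood in front. The peaks of Zfp647, Zfp689 and Zfp667 share ratio and score with a peak of another gene, at scores of -6.1, -5.85 and -5.6. Kept Zfp genes were not compared. Solute carrier genes gave 16 of 177 (9.04%), led by Slc7a4 (17.6). Ubiquitin genes gave 15 of 182 (8.24%), led by Cul4a and Fbxo36 (9.66), and small GTPase and Rab genes 6 of 65 (9.23%), led by Arl5b (4.03). One histone gene of 9, Hist1h4i (5.52), and 1 cell cycle gene of 9, Cdt1 (4.27), which licenses DNA replication, were members.

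Markers of the other liver cells were not among the members. None of 8 Kupffer cell and leukocyte markers with a control peak was control-only, none of 16 endothelial, none of 11 stellate cell and fibroblast and none of 4 cholangiocyte markers. The upper ends of the intervals were 32.4%, 19.4%, 25.9% and 49%, so these counts are small. A further 14 of the Kupffer cell and leukocyte markers had a peak only in the Wtap-HKO list. Of the cytokines, chemokines and their receptors, 1 of 37 was a member, Cxcl9 (2.72, score -8.40), and 33 others had a peak only in the Wtap-HKO list. Of the 10634 genes of the longer Wtap-HKO list, only 8096 also had a control peak. Genes with a peak only there were thus common, and nothing is read from the counts of 14 and 33.

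**Figure D5:**
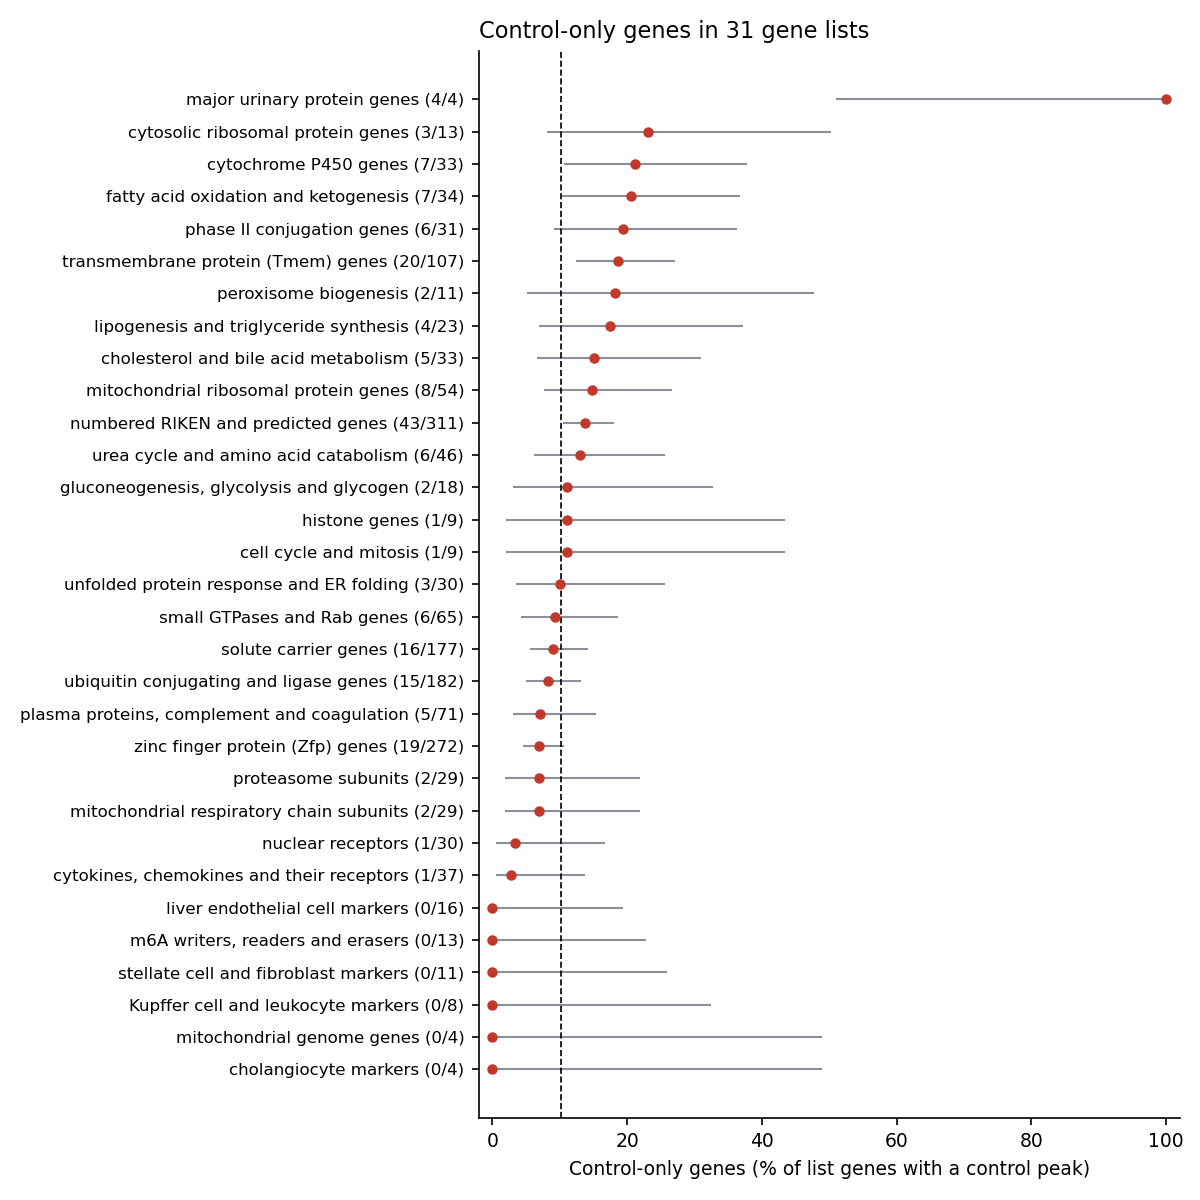
Percent of the genes with a control peak that were control-only in each of 31 gene lists, with the counts in brackets; points are percents, lines 95% Wilson intervals, and the dashed line the 10.2% of all genes. The major urinary protein genes stand at 100%, the metabolic lists between 11.1% and 21.2%, and the markers of other liver cells at 0%.

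With 31 lists and no test, most of these shares had an interval that included the 10.2% of all genes. The interval lay wholly above 10.2% for 5 lists, the major urinary protein, Tmem, P450, fatty acid oxidation and numbered gene lists, and wholly below it for none. The interval of the fatty acid list began at 10.3%. The lists overlap, as Cyp7b1 and Gstz1 are each in more than 1.

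Few members were missing from the Wtap-HKO list only by name. On the same strand, 8 of the 1100 control-only peaks (0.727%) shared exonic bases with a Wtap-HKO peak listed under another gene. Of the kept peaks, 86.1% shared a base with some Wtap-HKO peak. Kept peaks could overlap a peak of their own gene, which the rule bars for control-only genes, so these shares are not alike. The largest overlaps were those of Gm20425 with a peak of Srprb (154 bases), Gm29394 with Zhx1 (150), Zfp524 with Gm44973 (148), AC132392.1 with Micalcl (90) and a pair of genes without symbols (89). In all 8 cases the other gene also had a control peak. Such peaks may be listed under either of a pair of overlapping genes. With both strands counted, 21 peaks shared bases. Joining rows of 1 gene that overlap left 1090 of the 1100 peaks. 1700056E22Rik, for example, is listed with 2 peaks shifted by 1 base at each end.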

How the data were processed

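Liver RNA of both genotypes was sequenced by m6ARIP-seq, with 8 libraries in all. Per the methods and labels, reads were trimmed with fastp 0.19.11 and aligned to GRCm38 with BWA 0.7.12, and peaks were called with exomePeak. The authors deposited 1 combined list per genotype. How replicates were combined or scaled is not given in the sources used here. The fold enrichment the authors deposited is an IP to input ratio on a linear scale, and the deposited log10 score is that of the false discovery rate or p-value. The other deposited table holds the fold changes and p-values of the authors' own comparison of the genotypes. These were not used, only the positions of its peaks. No counts per library were at hand, so depth is unknown and no test across replicates was made. Columns of per-sample values left unused: 0.

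Lists were read with Python 3.11.15, pandas 2.3.3, numpy 2.4.6 and scipy 1.17.1. Genes were matched by identifier and peaks by at least 1 shared exonic base on the same strand. Starts are 1-based. Gene spans and start windows (250 nt before to 50 nt after a start) came from RefSeq, GRCm38.p6. Spans were matched by gene symbol or synonym, so genes without a symbol had none. Shares have 95% Wilson intervals, differences of shares Newcombe intervals, and medians binomial order-statistic intervals, computed with scripts tested on simulated data. Named genes are Wtap, the 10 members with the highest fold enrichment, the 10 with the most peaks (ties by fold enrichment), the 5 with the most exonic bases, up to 4 per gene list by fold enrichment, those at the edge of the lists and those overlapping another gene's peak; other genes were named after their values were seen. Some members that the rule names are not reported here. Members, gene lists and the score mark of -50 were chosen with earlier results of these data known. The alternatives were stricter thresholds, matching by position or symbol, single-peak genes, long genes and other distances.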

Additional observations from a re-analysis of the deposited data

How the results depend on the processing

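The number of control-only genes (924) stayed between 724 and 961, and that of their peaks (1100) between 862 and 1145, under every alternative run. The gene count was 724 when only genes with a symbol were counted, an alternative added after the data were seen, and 961 with a fold enrichment of at least 2 in both lists. The median exonic length (180 nt) was 208 nt with both lists at a false discovery rate under 1e-05, 192 nt with the control list alone at that rate, and 181 nt at a fold enrichment of at least 2, and was shorter than in kept genes each time. The share of peaks in the final 10% of the span (54.3%) was 58.7% in genes with 1 control peak and 59.8% in genes with a score below -50, an alternative added after the data were seen, and exceeded that of kept genes by 11.2 to 19.4 percentage points over all alternatives. The share of peaks near the 5′ end stayed between 3.71% and 5.93%, below that of kept genes each time, but among strong genes the interval of the difference included 0 (-9.57 to 0.328). The share of control-only peaks on a Wtap-HKO peak of another gene (0.727%) was 0.364% when at least 50% of the control peak had to be covered and 1.91% on either strand. With both lists under 1e-05, 8 gene lists gave the same or nearly the same counts, 8 in place of 7 in fatty acid oxidation and 4 in place of 6 in phase II genes. No paired analysis was possible because the lists hold no values per library, and for the same reason no replicate could be left out. A lower fold enrichment than the weakest deposited could not be examined, and depth is unknown.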

Other observations

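A list of genes known to be expressed at higher levels in male than in female mouse liver was drawn up after the values had been seen and therefore supports nothing. Of its 13 genes with a control peak, 9 were control-only, beside 10.2% over all genes. They were Mup7, Mup11, Mup16, Mup18, Hsd3b5, Elovl3, Slco1a1, Selenbp2 and Cyp7b1. Of the 9, 8 had a score below -50, as had 80 of all 924 control-only genes. The list of lower RNA and accessibility, which held 6.77% of all genes with a control peak, held 8 of the 9, all but Mup18. It also held all 4 of the kept genes. Of 3 genes with a control peak that are known for higher levels in female liver, Cyp2b10 and Cyp2c69 were control-only. A peak only in the Wtap-HKO list was held by 2 other genes of the male list and 3 of the female list. Of all 10634 genes of the Wtap-HKO list, 8096 also had a control peak, so nothing is read from these counts.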
